A study of Homo sapiens with 12 samples.

Results

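The Wnt ligands and their receptors were read here as 34 genes, of 62426 in the count table and 40400 in the variance-stabilized table. A gene was included when its symbol in the latter table was WNT or FZD followed by its number and letter, or was LRP5, LRP6, ROR1, ROR2 or RYK. The rule used symbols alone and no measured value. It gave 19 ligands, 10 Frizzled receptors, 2 LRP co-receptors and 3 receptors of the ROR and RYK kind. RNAseq was available for 12 libraries of HCT116 and SW480, which are established human colon cancer cell lines. Each line had 2 libraries of parental cells, 2 of cells labelled as overexpressing the standard isoform of CD44 (CD44s-OE) and 2 of cells labelled as overexpressing the isoform with variable exon v6 (CD44v6-OE). OE cells had been stably transfected with plasmids and selected with Geneticin, whereas the parental cells are not described as carrying an empty vector. Effects of transfection and selection therefore cannot be told apart from those of the isoform in a comparison with parental cells. When CD44s-OE is compared with CD44v6-OE both groups had been transfected and selected, but differences between the 2 plasmids cannot be told apart from those between the isoforms. The headers of the count table call the OE libraries pools, and nothing states that the replicates came from separate transfections, so p-values measure the spread between libraries, which may be technical.

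Wnt proteins are secreted, lipid-modified ligands. In the canonical branch a ligand binds a Frizzled receptor together with LRP5 or LRP6, beta-catenin escapes degradation and enters the nucleus, and TCF/LEF factors switch on target genes. In other branches ligands such as WNT5A act through Frizzled receptors, ROR1, ROR2 or RYK on cell polarity and movement. The intestinal crypt depends on canonical Wnt signaling, and most colon cancers activate it inside the cell: SW480 carries a truncated APC and HCT116 a mutant beta-catenin, both downstream of the ligands and receptors described here.

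Total counts ranged from 43102156 to 52811889 per library, and where no read was counted up to 3 read pairs remain possible (6 counts, counting error only). Counts are given as CPM (scaled to library size with TMM), and as RPKM, which divides by exon length as well, when genes are compared with each other. Total CD44 RNA did not pass the test in any comparison within a line. CD44 was between 503 and 571 CPM in the HCT116 libraries and between 134 and 205 CPM in the SW480 libraries. Against parental cells its log2 fold change was 0.01 in HCT116 CD44s-OE, -0.09 in HCT116 CD44v6-OE, 0.12 in SW480 CD44s-OE and -0.34 in SW480 CD44v6-OE, so the overexpression that the labels give was not visible in these counts, which sum all isoforms. Reads of the antisense gene CD44-AS1 separated the CD44v6-OE libraries, with counts of 97 and 119 for HCT116 and of 154 and 177 for SW480, while no parental or CD44s-OE library exceeded 3. OE groups are therefore named below as labelled. For its OE cells of both lines, the study gives isoform RT-qPCR and western blots of CD44s and CD44v6, which are not part of these counts. Of 13 markers of colon epithelium, 10 reached 1 CPM in every group, while CDX1 and LGALS4 were at or near 0 throughout. The replicates of SW480 parental and of HCT116 CD44s-OE differed most from each other: 6.39% and 4.94% of genes at 1 CPM or more differed over 2-fold between them, against 0.181% to 1.5% in the other 4 groups. Among the Wnt genes, WNT6, WNT7A, WNT8B, WNT9A and FZD6 differed over 2-fold between the SW480 parental libraries, and WNT4, WNT10A and WNT11 between the HCT116 CD44s-OE libraries. WNT9A was 6.6-fold higher in the first SW480 parental library than in the second.

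Of the 34 genes, 31 had more than 6 counts in both libraries of at least 1 group, and 29 had a mean of at least 1 CPM in at least 1 group, which is called expressed here. HCT116 expressed 24, SW480 expressed 26, and 21 were expressed in both lines. Most of this division between the lines lay with the ligands. Of 19 ligands, 8 were expressed in both lines, WNT2B, WNT3A and WNT4 in HCT116 alone, and WNT5A, WNT5B, WNT7A and WNT8B in SW480 alone. The limit of 1 CPM decided this for WNT4, with group means of up to 0.944 CPM in SW480, and for WNT7A, with up to 0.969 in HCT116. At 0.5 CPM both were expressed in both lines. WNT7B counted as expressed in SW480 through CD44v6-OE alone, with a mean of 1.39 CPM from libraries of 1.88 and 0.897. Its SW480 means were 0.886 CPM in parental cells and 0.459 in CD44s-OE. WNT1, WNT2, WNT8A and WNT9B stayed under 1 CPM in every group, and WNT2, WNT8A and WNT9B had 4 counts at most in any library. Of 10 Frizzled receptors, 8 were expressed in both lines, FZD8 in SW480 alone and FZD10 in neither. FZD10 fell just short in SW480, with group means from 0.571 to 0.983 CPM, and was expressed there at 0.5 CPM. No HCT116 library held more than 1 count of it. LRP5, LRP6, ROR1, ROR2 and RYK were expressed in all 6 groups.

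**Figure D1:**
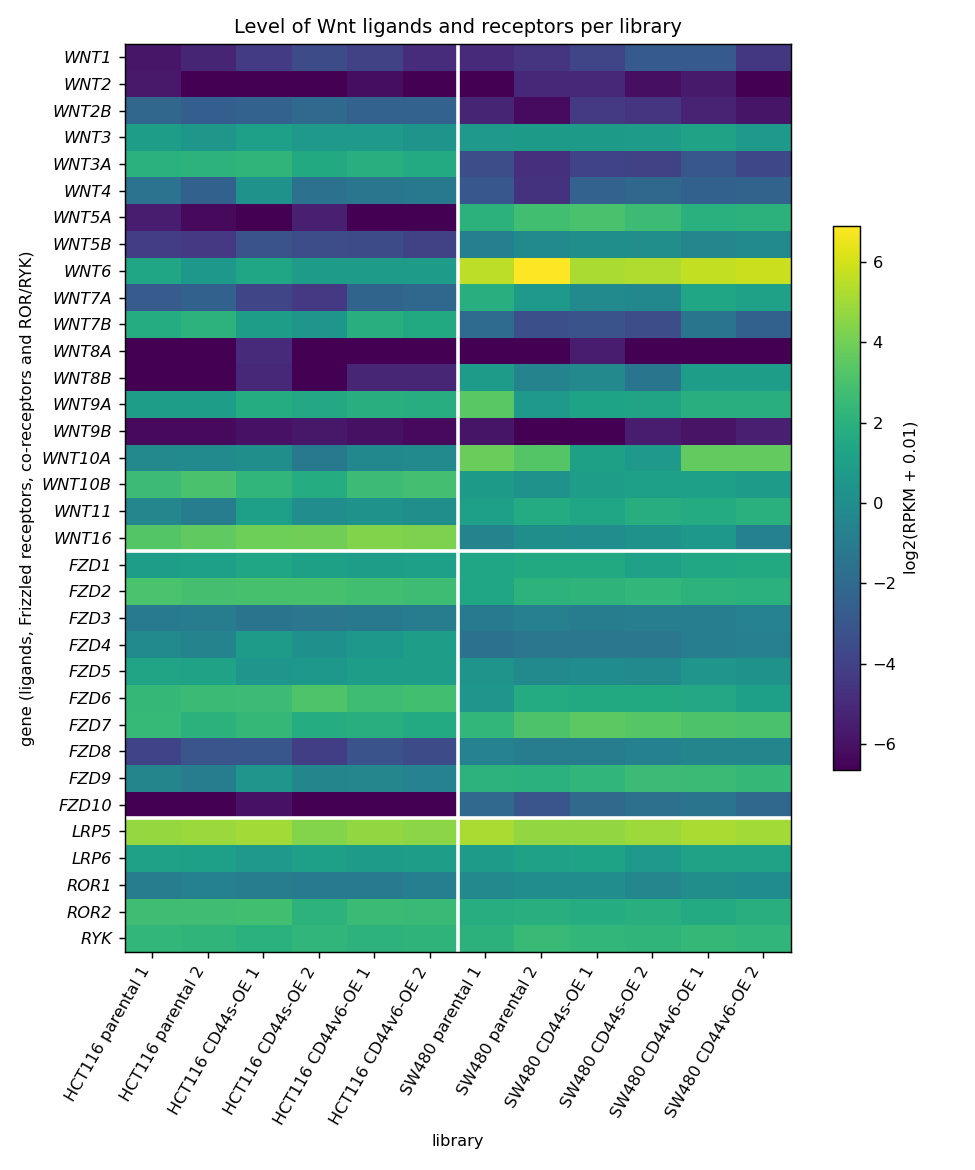
Level of the 34 genes in each of the 12 libraries, as log2 of RPKM plus 0.01; columns are libraries, rows are genes, and white lines separate the lines and the ligands, Frizzled receptors and co-receptors with ROR/RYK. LRP5 is high in every column, whereas WNT6, WNT5A, WNT3A and WNT16 split the 6 HCT116 columns from the 6 SW480 columns.

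WNT16 was the leading ligand of HCT116. In parental HCT116 it stood at 10.9 ± 1.49 RPKM (SD, n = 2, as for all means below), followed by WNT10B at 7.21 ± 1.45. WNT3A, the ligand commonly used to switch on the canonical branch in culture, followed at 4.17 ± 0.308 RPKM and did not separate from WNT7B at 3.86 ± 0.65. WNT6 (2.02 ± 0.789) and WNT9A (1.84 ± 0.00394) overlapped as well. WNT16 held 30.8% to 49.2% of the summed ligand RPKM over the 6 HCT116 libraries, and WNT10B was second in each.

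WNT6 led in SW480 by a wide margin. It had 3191 and 10293 counts in the parental libraries, 2966 and 3460 in CD44s-OE cells, then 3927 and 4505 in CD44v6-OE. The second parental library stood far above the other 5, so the parental mean of 83.2 ± 51.4 RPKM carries a large error. WNT6 held 53.2% to 80.5% of the summed ligand RPKM in the 6 SW480 libraries. WNT10A came second in both parental libraries (15.9% and 6.56%) and in both CD44v6-OE libraries (14.6% and 13.6%). In the CD44s-OE libraries WNT5A came second, at 13.9% and 10.2%, and WNT10A stood sixth by mean RPKM.

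**Figure D2:**
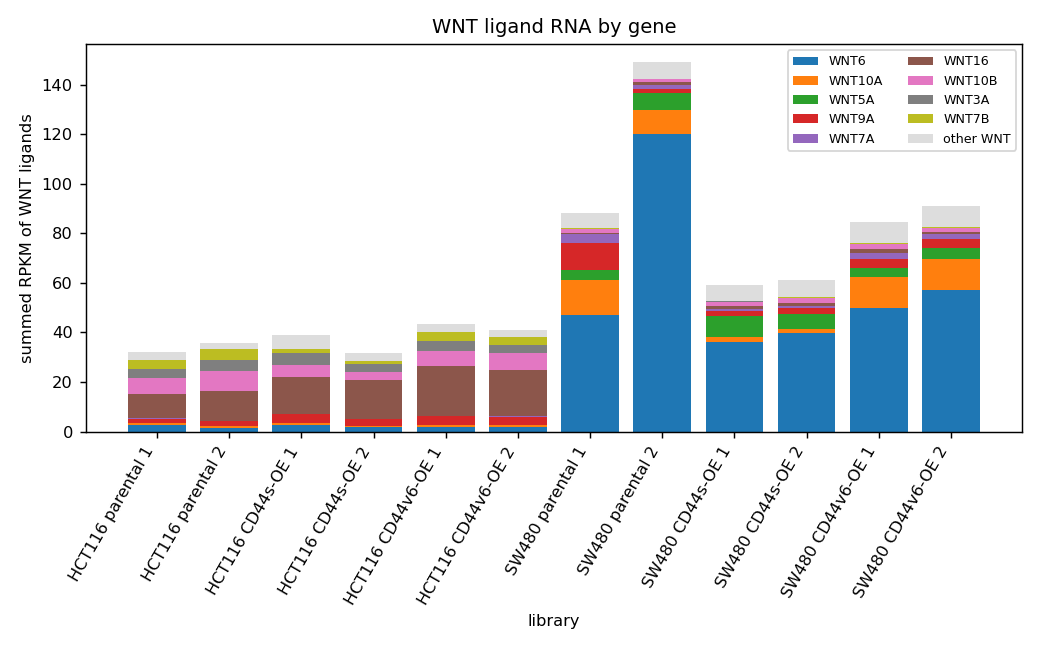
RPKM of the WNT ligands summed in each library (vertical axis), with 9 ligands coloured and the other 10 in grey. The sum lies between 31.8 and 43.5 RPKM in HCT116 and between 59.2 and 149 in SW480, where WNT6 makes the largest block and the WNT10A block is thin in both CD44s-OE libraries.

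The LRP co-receptors were more alike between the lines. LRP5 was the most abundant of the receptors by RPKM in both lines, at 27.8 ± 1.54 in parental HCT116 and 31 ± 7.56 in parental SW480, and its relative LRP6 stood at 2.07 ± 0.112 and 1.97 ± 0.235. Among Frizzled receptors, FZD2 led in parental HCT116 at 7.99 ± 0.649 RPKM, followed by FZD6 at 5.58 ± 0.587 and FZD7 at 4.78 ± 0.874, which overlapped. In parental SW480 the order was FZD7 at 6.92 ± 2.66 RPKM, then FZD9 at 4.13 ± 0.172, FZD2 at 3.42 ± 1.27 and FZD1 at 2.81 ± 0.284, with the last 3 overlapping in turn. ROR2 (6.8 ± 0.0657) stood above RYK (4.82 ± 0.156) in parental HCT116, and RYK (4.96 ± 1.05) above ROR2 (3.54 ± 0.0869) in parental SW480. ROR1 was the lowest of the 5 co-receptors and ROR/RYK receptors in both lines.

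The parental lines were compared in a fit over all 12 libraries (edgeR's quasi-likelihood test, Benjamini-Hochberg adjustment over 19567 genes). Of 31 Wnt genes tested, 25 had an adjusted p under 0.1, where 60.9% of all tested genes did; 14 were higher in SW480 (31.7% of all genes) and 11 lower (29.2%). With a log2 fold change over 1.5 in size as well, which is the study's threshold and is termed called here, 17 were called (11 higher and 6 lower in SW480), where 29% of all tested genes were (16.1% higher and 12.9% lower). Ligands made up 14 of the 17, and 16 of the 31 genes tested. Of the 10 Frizzled receptors tested, 5 were higher and 4 lower in SW480 at an adjusted p under 0.1. Of those higher, FZD7 (log2 fold change 0.53, adjusted p = 0.0915) passed in 10 of 19 alternatives (other settings, or 1 library left out). Its value there ran from 0.07 to 0.88. FZD1 (0.50, adjusted p = 0.0422) passed in 14 of 19. The canonical ligand WNT3A had a log2 fold change of -6.28 in SW480 against HCT116 (SE 0.44, adjusted p = 4.21e-08). The log2 fold change, SW480 against HCT116, was -4.50 for WNT7B (adjusted p = 1.16e-06), -3.66 for WNT16 (adjusted p = 1.60e-06), 5.36 for WNT6 (adjusted p = 5.82e-06), 4.06 for WNT7A (adjusted p = 1.00e-06) and 3.78 for WNT10A (adjusted p = 4.79e-07). WNT5A, the best known ligand of the polarity branch, had 4 and 1 counts in parental HCT116 against 1210 and 2631 in parental SW480 (adjusted p = 2.77e-08). WNT8B had 0 counts in both parental HCT116 libraries and 148 and 71 in parental SW480, at least 22-fold higher against a floor of 6 counts per library. FZD10 had 0 counts in the same 2 libraries and was at least 4.88-fold higher in SW480 on that floor. Of the other Frizzled receptors, FZD9 was higher in SW480 (log2 fold change 2.75, adjusted p = 4.11e-06), as was FZD8 (2.83, adjusted p = 0.000135), whereas FZD2, FZD4, FZD5 and FZD6 were lower by 1.04 to 1.27. LRP5, LRP6, RYK, FZD3, WNT1 and WNT3 were the 6 genes that did not pass. WNT9A was called higher in SW480 (1.75, adjusted p = 0.0529), but without the first SW480 parental library its log2 fold change was -0.18. Its adjusted p was under 0.1 in 13 of the 19 alternatives, and it did not pass with no filter on low counts.

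In SW480, 2 ligands were lower in the libraries labelled CD44s-OE. At an adjusted p under 0.1, 2 of 31 Wnt genes passed in CD44s-OE against parental cells, where 4.72% of all 17539 tested genes did; both were called, where 2.03% of all genes were. Both were lower (2.22% of all genes passed in that direction), and no Wnt gene was higher. In bulk RNA, fewer cells with a transcript and less of it per cell cannot be told apart.

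WNT10A, a canonical ligand of skin, hair and tooth development, had 1624 and 1425 counts in parental SW480, 286 and 231 in CD44s-OE cells, then 1659 and 1653 in CD44v6-OE. In CPM these were 41 and 28.5, 6.01 and 4.56, and 36.2 and 36.2. Both CD44s-OE libraries lay far below the other 4, whose ranges overlapped. WNT10A fell 6.66-fold against parental cells (log2 fold change -2.73, SE 0.23, adjusted p = 0.000301) and 6.81-fold against CD44v6-OE (log2 fold change -2.77, SE 0.23, adjusted p = 0.000367). In HCT116 the same gene had 2.45 and 2.6 CPM in parental cells, 3.13 and 1.25 in CD44s-OE cells, then 2.34 and 2.52 in CD44v6-OE, so the CD44s-OE libraries spanned the rest.

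WNT7A, a ligand that can act through both branches, had 650 and 361 counts in parental SW480, 184 and 183 in CD44s-OE cells, then 535 and 449 in CD44v6-OE. In CPM these were 16.4 and 7.21, 3.86 and 3.62, and 11.7 and 9.83. The CD44s-OE libraries were again the lowest, and the parental libraries lay on both sides of the CD44v6-OE ones. WNT7A fell 3.19-fold against parental cells (log2 fold change -1.67, SE 0.34, adjusted p = 0.0291) and 2.85-fold against CD44v6-OE (log2 value -1.51, SE 0.34, adjusted p = 0.0633). Without the first parental library the first value was -0.97, under the fold threshold of 1.5, though its adjusted p stayed under 0.1. The adjusted p against parental cells was over 0.1 without either CD44s-OE library (up to 0.37), and that against CD44v6-OE also without either CD44v6-OE library (adjusted p up to 0.688). WNT10A kept an adjusted p under 0.1 in 15 of 15 alternatives in both comparisons.

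The sequences before the annotated start sites of these ligands are shown because they fell together in SW480 CD44s-OE, in which the repressor ZEB1 was higher. In HCT116 CD44s-OE, where ZEB1 was higher too, WNT7A fell but WNT10A was at -0.20 (edgeR, adjusted p = 0.794). ZEB1 binds the E-box CACCTG, and its part in the fall was not tested. WNT6 is added as the neighbour of WNT10A: on chromosome 2 of hg19, WNT6 runs from 219724528 to 219738955 and WNT10A from 219745574 to 219764303, both on the plus strand with 6618 bases between them. The 250 bases upstream of the RefSeq start (build GRCh38.p14, strand as given, 5′ to 3′) follow, with capitals on each match to CACCTG or to the GC box GGGCGG on either strand.
WNT10A, chr2:218880602-218880851, plus strand: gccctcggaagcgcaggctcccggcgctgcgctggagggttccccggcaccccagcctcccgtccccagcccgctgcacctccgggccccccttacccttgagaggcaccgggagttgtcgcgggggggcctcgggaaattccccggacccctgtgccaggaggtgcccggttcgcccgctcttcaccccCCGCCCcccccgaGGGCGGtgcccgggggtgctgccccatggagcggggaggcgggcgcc
WNT7A, chr3:13880072-13880321, minus strand: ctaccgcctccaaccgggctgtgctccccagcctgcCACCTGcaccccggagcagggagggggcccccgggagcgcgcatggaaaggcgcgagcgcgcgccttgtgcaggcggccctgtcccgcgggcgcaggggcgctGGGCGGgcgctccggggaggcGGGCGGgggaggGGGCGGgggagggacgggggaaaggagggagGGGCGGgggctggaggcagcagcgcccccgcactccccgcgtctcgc
WNT6, chr2:218859555-218859804, plus strand: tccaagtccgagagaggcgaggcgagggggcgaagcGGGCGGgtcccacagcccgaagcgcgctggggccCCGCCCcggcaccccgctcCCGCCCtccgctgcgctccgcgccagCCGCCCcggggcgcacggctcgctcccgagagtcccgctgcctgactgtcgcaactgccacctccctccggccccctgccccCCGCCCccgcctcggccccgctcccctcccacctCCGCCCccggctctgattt
WNT7A held 1 E-box and 4 GC boxes, WNT10A held 2 GC boxes and WNT6 held 6. Of 35116 windows of this length over all genes, 17.5% held CACCTG, 42.6% held GGGCGG and 11.2% held CTTTGA, a core of TCF/LEF sites, with both strands searched. Of the Wnt genes, 25 matched an entry, with 28 windows among them. CACCTG was found in 6 of these windows (of FZD5, WNT2B, WNT3A, WNT5A, WNT7A and WNT9B), GGGCGG in 22 and CTTTGA in 0. These matches describe letters in the windows and nothing about binding. FZD2, FZD3, FZD6, FZD7, FZD10, LRP6, WNT7B, WNT10B and WNT11 matched no entry.

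WNT6 itself did not pass the test. Its log2 fold change in CD44s-OE against parental SW480 was -1.15 (SE 0.40, adjusted p = 0.234), with 80.6 and 206 CPM in parental cells, 62.3 and 68.4 in CD44s-OE cells, then 85.7 and 98.6 in CD44v6-OE. The CD44s-OE libraries were the lowest and the second parental library far the highest. The value for WNT6 ran from -1.67 to -0.32 over 15 alternatives, of which 3 passed. WNT9A, with 1706 and 327 counts in parental SW480, was at -1.40 (SE 0.87, adjusted p = 0.549). WNT5A had 30.6 and 52.5 CPM in parental cells, 60.8 and 46 in CD44s-OE cells, then 28.6 and 31.3 in CD44v6-OE. The CD44s-OE libraries lay above the CD44v6-OE ones, but the difference did not pass (log2 fold change 0.84, SE 0.25, adjusted p = 0.183). WNT8B was at -1.70 in the same comparison (SE 0.49, adjusted p = 0.168).

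None of the 31 Wnt genes passed in SW480 CD44v6-OE against parental cells, where 0.57% of all genes did, and 0.416% were called. The count was 0 at an unadjusted p under 0.05 with edgeR, where 8.71% of all genes passed, and 0 at an adjusted p under 0.1 with DESeq2 as well. WNT10A was at 0.03 (SE 0.21), whereas WNT9A was at -0.79 (SE 0.85), a value with a much wider error. In CD44s-OE against CD44v6-OE, WNT10A and WNT7A were the 2 genes that passed, where 2.12% of all genes did (1.55% lower) and 1.02% were called. DESeq2 added WNT5A and WNT8B.

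**Figure D3:**
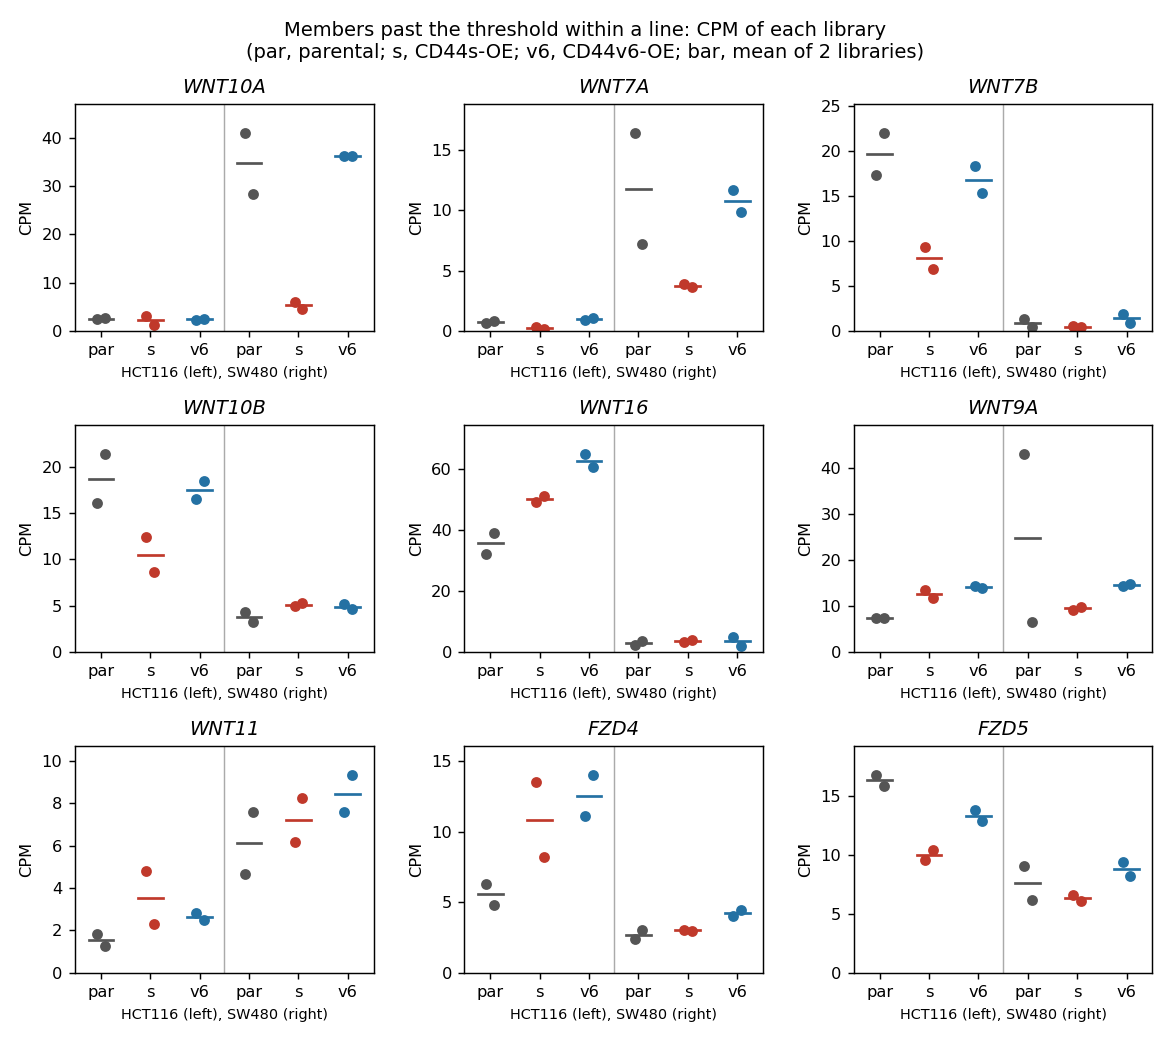
CPM of each library (vertical axis, from 0) for the 9 genes with an adjusted p under 0.1 in any comparison within a line; grey points are parental, red CD44s-OE and blue CD44v6-OE, with HCT116 left and SW480 right of the line and a bar at the mean of 2 libraries. WNT10A and WNT7A drop in the SW480 CD44s-OE libraries, WNT7B and WNT10B in the HCT116 CD44s-OE libraries, and WNT16 and WNT9A stand higher in both HCT116 OE groups.

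In HCT116 CD44s-OE more of the Wnt genes passed than in SW480 CD44s-OE, as did more of all tested genes. Between CD44s-OE and parental cells 8 of 27 Wnt genes tested had an adjusted p under 0.1 (29.6%), where 14.2% of all 17335 tested genes did. Of these, 4 were higher (WNT9A, WNT11, WNT16 and FZD4), as were 8.45% of all genes, and 4 were lower (WNT7A, WNT7B, WNT10B and FZD5), as were 5.71%. WNT7A alone was called, where 3.09% of all genes were. The median log2 fold change was -0.026 over the 27 and 0.042 over all genes.

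WNT7B, a canonical ligand of epithelia, had 17.3 and 22 CPM in parental HCT116, 9.39 and 6.9 in CD44s-OE cells, then 18.4 and 15.3 in CD44v6-OE. Both CD44s-OE libraries were below the other 4. WNT7B fell 2.41-fold against parental cells (log2 fold change -1.27, SE 0.22, adjusted p = 0.0117) and 2.07-fold against CD44v6-OE (-1.05, SE 0.22, adjusted p = 0.0957). The second p passed in 8 of 15 alternatives. In SW480 the gene was low throughout, at 1.31 and 0.459 CPM in parental cells, 0.504 and 0.415 in CD44s-OE cells, then 1.88 and 0.897 in CD44v6-OE.

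WNT10B, a canonical ligand first known from mammary tissue, had 16.1 and 21.4 CPM in parental HCT116, 12.4 and 8.63 in CD44s-OE cells, then 16.5 and 18.5 in CD44v6-OE. The CD44s-OE libraries were the lowest. WNT10B fell 1.78-fold from the parental level (log2 value -0.83, SE 0.22, adjusted p = 0.0526) and was at -0.74 against CD44v6-OE (SE 0.22, adjusted p = 0.258). In SW480 it had 4.32 and 3.21 CPM in parental cells, 4.94 and 5.28 in CD44s-OE cells, then 5.17 and 4.6 in CD44v6-OE, with the parental libraries lowest.

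WNT7A was close to its lower limit in HCT116, with 33 and 40 counts in parental cells, 14 and 9 in CD44s-OE cells, then 47 and 56 in CD44v6-OE. The CD44s-OE libraries did not overlap the others. It fell 3.1-fold against parental cells (log2 fold change -1.63, SE 0.48, adjusted p = 0.0716), and the difference from CD44v6-OE did not pass (-2.09, SE 0.48, adjusted p = 0.128). The difference from parental cells passed in 8 of 14 alternatives. It was lost without either parental library, the second CD44s-OE library or either CD44v6-OE library, and with the 2 compared groups alone (adjusted p up to 0.295).

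WNT16, the leading ligand of HCT116, had 32.2 and 39.1 CPM in parental cells, 49 and 51.1 in CD44s-OE cells, then 64.8 and 60.5 in CD44v6-OE. The 3 groups did not overlap, and CD44v6-OE was the highest. WNT16 rose 1.41-fold in CD44s-OE (log2 value 0.49, SE 0.15, adjusted p = 0.0715) and 1.76-fold in CD44v6-OE cells (log2 value 0.82, SE 0.15, adjusted p = 0.043), and the OE groups were at -0.32 to each other (SE 0.15, adjusted p = 0.478). In SW480 it had 2.15 and 3.45 CPM in parental cells, 3.19 and 3.83 in CD44s-OE cells, then 4.93 and 1.97 in CD44v6-OE, with all 3 groups overlapping.

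WNT9A had 7.35 and 7.38 CPM in parental HCT116, 13.5 and 11.7 in CD44s-OE cells, then 14.3 and 13.9 in CD44v6-OE. All 4 OE libraries were above the parental ones. WNT9A rose 1.71-fold in CD44s-OE (adjusted p = 0.0324) and 1.92-fold in CD44v6-OE cells (adjusted p = 0.0511), each with an SE of 0.18 in log2 units. In SW480 it had 43.1 and 6.53 CPM in parental cells, 9.22 and 9.74 in CD44s-OE cells, then 14.4 and 14.7 in CD44v6-OE, so the parental libraries spanned both OE groups. WNT11, known for its part in cell movements of the embryo, had 1.84 and 1.27 CPM in parental HCT116, 4.79 and 2.31 in CD44s-OE cells, then 2.81 and 2.48 in CD44v6-OE. It rose by 1.19 in CD44s-OE (SE 0.38, adjusted p = 0.0884), with the first CD44s-OE library highest. Without that library WNT11 was at 0.57, the lowest of 15 alternatives, of which 9 passed. With the 2 compared groups alone it did not pass. In SW480 WNT11 had 4.67 and 7.61 CPM in parental cells, 6.17 and 8.28 in CD44s-OE cells, then 7.59 and 9.34 in CD44v6-OE, with overlap between neighbouring groups.

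Of 9 Frizzled receptors tested in HCT116, FZD4 rose and FZD5 fell in CD44s-OE. FZD4, the receptor for norrin as well as for Wnt ligands, had 6.29 and 4.82 CPM in parental cells, 13.5 and 8.17 in CD44s-OE cells, then 11.1 and 14 in CD44v6-OE. The OE groups overlapped and lay above the parental libraries. Its log2 fold change was 0.96 in CD44s-OE (SE 0.27, adjusted p = 0.061), and 1.18 in CD44v6-OE (SE 0.27, adjusted p = 0.104), which passed in 8 of 15 alternatives. FZD5, a receptor of intestinal epithelium, had 16.8 and 15.9 CPM in parental cells, 9.55 and 10.4 in CD44s-OE cells, then 13.8 and 12.9 in CD44v6-OE. The 3 groups did not overlap. FZD5 fell 1.63-fold from the parental level (log2 value -0.71, SE 0.17, adjusted p = 0.0373) and was at -0.41 against CD44v6-OE (SE 0.17, adjusted p = 0.43). In SW480 FZD4 had 2.37 and 3.02 CPM in parental cells, 3.02 and 2.96 in CD44s-OE cells, then 4.04 and 4.42 in CD44v6-OE, and FZD5 had 9.04 and 6.15, 6.64 and 6.09, and 9.4 and 8.23. Neither gene passed in SW480, and the 10 Frizzled receptors tested there lay between -0.27 and 0.67 in CD44s-OE and between 0.03 and 0.77 in CD44v6-OE.

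The ligands that did not pass within a line with edgeR included WNT4, which acts in kidney and gonad development and had 84 and 41 counts in parental HCT116, 273 and 78 in CD44s-OE cells, then 94 and 109 in CD44v6-OE. The first CD44s-OE library stood far above the other 5, and the log2 fold change against parental cells was 1.54 (SE 0.56, adjusted p = 0.124). It was 0.30 without that library, and WNT4 passed with DESeq2 and in 4 of 15 alternatives in all. WNT3A lay between 8.95 and 14.2 CPM in the HCT116 libraries, and WNT3 between 5.43 and 8.39 CPM in HCT116 and 6.52 and 9.38 in SW480. WNT5B lay between 2.4 and 4.45 CPM in SW480, and WNT2B between 1.93 and 2.94 in HCT116. Among receptors, FZD1 lay between 13.2 and 17.3 CPM in HCT116 and 14.9 and 20.9 in SW480. FZD7 had 20.8 and 16.1 CPM in parental HCT116, 20.3 and 13.1 in CD44s-OE cells, then 13.8 and 12 in CD44v6-OE, and 19.4 and 34, 43.4 and 39.4, and 33.3 and 30.9 in the SW480 groups. Its CD44s-OE libraries were the highest of SW480, at 0.61 above parental cells in log2 units, and the difference did not pass (SE 0.24, adjusted p = 0.227). FZD2 lay between 24.4 and 31.9 CPM in HCT116 and 9.55 and 19.2 in SW480, and FZD6 between 21 and 37.1 in HCT116 and 5.61 and 13.1 in SW480. FZD3 lay between 4.96 and 6.97 CPM in HCT116 and 6.29 and 8.69 in SW480, and FZD9 between 1.19 and 3.21 and between 9.38 and 14.4. FZD8 reached 2.06 to 2.93 CPM in SW480 against 0.19 to 0.461 in HCT116. None of FZD1, FZD2, FZD3, FZD6, FZD7, FZD8 or FZD9 passed in any comparison within a line.

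In CD44v6-OE against parental HCT116, WNT16 and WNT9A were the 2 of 27 Wnt genes that passed (7.41%), where 1.53% of all genes did (1.44% higher), and 0 were called, where 0.779% of all genes were. With DESeq2, FZD4 passed as well. Between CD44s-OE and CD44v6-OE, WNT7B was the 1 gene that passed, where 0.813% of all genes did (0.392% lower), and 0 were called, where 0.288% were. DESeq2 passed WNT7A, WNT7B and WNT10B in that comparison. WNT9A, WNT16, FZD4, FZD5 and WNT10B, which passed in CD44s-OE HCT116, had an adjusted p over 0.1 in 4 to 6 of 15 alternatives, chiefly those with 1 library fewer or with the 2 compared groups alone. In CD44v6-OE, WNT9A and WNT16 each had one in 5 of 15, with 1 parental or 1 CD44v6-OE library left out and with all 12 libraries in the fit (adjusted p up to 0.734 for WNT9A and 0.489 for WNT16).

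The co-receptors and the ROR and RYK receptors held a narrow range. LRP5, LRP6, ROR1, ROR2 and RYK lay between -0.26 and -0.04 in CD44s-OE HCT116 (lowest adjusted p = 0.462), between -0.23 and -0.11 in CD44v6-OE HCT116 (0.734), between -0.15 and -0.01 in CD44s-OE SW480 (0.764) and between -0.09 and 0.17 in CD44v6-OE SW480 (0.901). None of the 5 passed in any comparison within a line with edgeR or DESeq2. Their SE on the log2 scale was 0.15 to 0.25 in HCT116 CD44s-OE, so changes well under 1.5 in size could have gone undetected. LRP6 lay between 16.3 and 22.3 CPM in HCT116 and 15.9 and 24.2 in SW480, and RYK between 33.1 and 40.2 and between 34.4 and 46.5. ROR2, a receptor of WNT5A, lay between 25.7 and 40.8 CPM in HCT116 and 18.2 and 22 in SW480, and ROR1 between 3.12 and 4.18 and between 5.14 and 6.81. LRP5 had 165 and 178 CPM in parental HCT116, 202 and 131 in CD44s-OE cells, then 163 and 147 in CD44v6-OE.

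**Figure D4:**
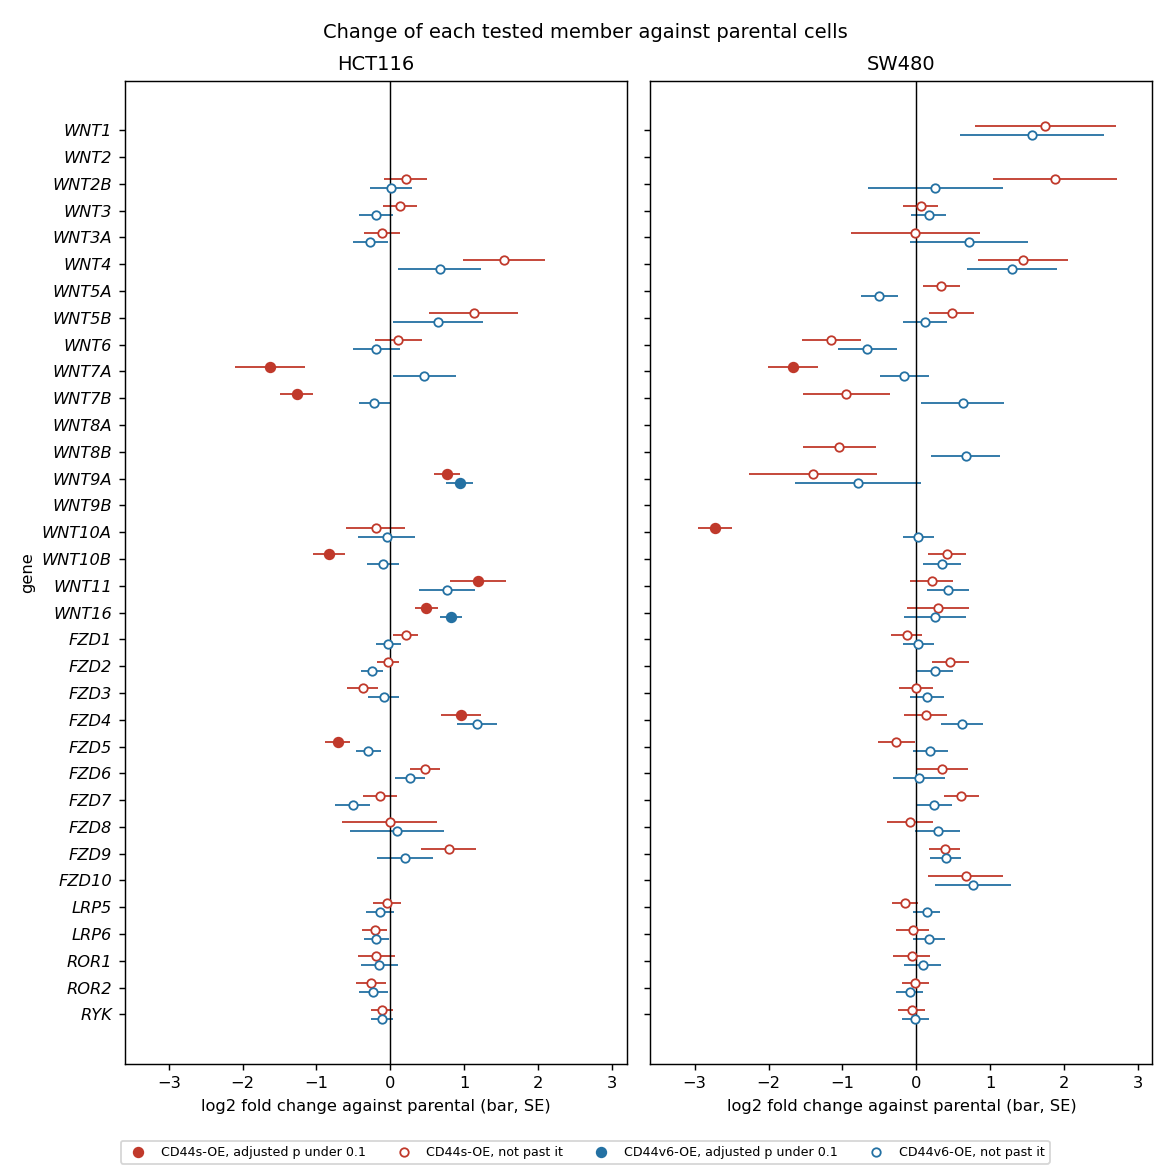
Log2 fold change against parental cells (horizontal axis; bar, SE) of each tested Wnt gene in HCT116 (left) and SW480 (right), red for CD44s-OE and blue for CD44v6-OE; filled points have an adjusted p under 0.1 and rows without a point were not tested. The WNT10A point of SW480 CD44s-OE lies farthest left at -2.73, and LRP5, LRP6, ROR1, ROR2 and RYK lie between -0.26 and 0.17.

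The line difference was tested directly, as the change in SW480 minus that in HCT116, over all 12 libraries. In CD44s-OE against parental cells 2 of 31 Wnt genes passed, where 3.92% of all genes did. WNT10A differed by -2.51 on the log2 scale (SE 0.45, adjusted p = 0.0127), having a log2 fold change of -2.73 in SW480 and -0.20 in HCT116. WNT10B differed by 1.28 (SE 0.34, adjusted p = 0.0719), with 0.42 in SW480 and -0.83 in HCT116. In CD44s-OE against CD44v6-OE, WNT10A differed by -2.62 (SE 0.45, adjusted p = 0.0323), where 0.491% of all genes passed. In CD44v6-OE against parental cells 0 of 31 passed, where 0.409% of all genes did; FZD7 alone had an unadjusted p under 0.05, as did 8.86% of all genes, and DESeq2 gave 0 as well. WNT7A, which fell in CD44s-OE cells of both lines, had a line difference of -0.02. Its SE, the fold change over the root of the F statistic, came to 1.06, against 0.48 in HCT116 and 0.34 in SW480 alone. Both parts of that ratio were small for the line difference, so this SE is uncertain.

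Other genes of the pathway were counted by role. The shares of all tested genes that passed, against which each count below is to be read, were 8.45% higher and 5.71% lower in HCT116 CD44s-OE, 1.44% and 0.0981% in HCT116 CD44v6-OE, 2.5% and 2.22% in SW480 CD44s-OE, and 0.542% and 0.0285% in SW480 CD44v6-OE. In CD44s-OE against CD44v6-OE they were 0.421% higher and 0.392% lower in HCT116, and 0.57% and 1.55% in SW480. Among secreted and membrane modulators, 3 of 15 tested rose and 0 fell in CD44s-OE HCT116. They were the Wnt antagonists DKK1 (log2 fold change 1.20, adjusted p = 0.00418), NOTUM (0.96, adjusted p = 0.0127) and DKK4, which had 0 CPM in both parental libraries and 0.963 and 2.31 CPM in CD44s-OE, at least 14-fold higher. NOTUM, which removes the lipid from Wnt ligands, had 25.6 and 22.8 CPM in parental HCT116, 48 and 46.2 in CD44s-OE cells, then 24.1 and 18.7 in CD44v6-OE. In SW480 CD44s-OE, 2 of 14 rose, DKK3 (1.74, adjusted p = 0.00101) and the DKK receptor KREMEN1 (0.68, adjusted p = 0.0542), and the secreted Frizzled-related protein SFRP5 fell by 0.63 (adjusted p = 0.0806). SFRP5 was lower by 1.34 in CD44s-OE than in CD44v6-OE (adjusted p = 0.00332). In SW480 CD44v6-OE, KREMEN1 rose (1.04, adjusted p = 0.0335) and DKK4 fell by 1.88 (adjusted p = 0.0898). In CD44v6-OE HCT116, 0 of 15 rose and APCDD1 fell. Against CD44v6-OE, 3 of 15 were higher in HCT116 CD44s-OE (NOTUM, APCDD1 and DKK4), and 2 of 14 in SW480 CD44s-OE (DKK1 and DKK3).

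For ligand production and release, 2 of 5 genes tested rose in CD44s-OE HCT116, where 8.45% of all genes did. These were WLS (0.87, adjusted p = 0.0475), the carrier that takes Wnt ligands to the cell surface, and the proteoglycan GPC3 (1.62, adjusted p = 0.0707). SDC1, a proteoglycan of epithelial surfaces, fell by 1.00 (adjusted p = 0.00907). PORCN, the enzyme that adds the lipid, was at 0.27 (adjusted p = 0.515), and 0 of 4 passed in SW480. Of 17 genes of the cytoplasmic beta-catenin pathway, AMER1 fell by 0.57 in CD44s-OE HCT116 (adjusted p = 0.0986) and 0 passed in any other comparison within a line. Of the nuclear factors, 0 of 12 in HCT116 and 0 of 14 in SW480 passed in any comparison within a line. In the polarity and calcium branches 1 of 17 rose (CELSR3, 0.84, adjusted p = 0.023) and 2 fell in CD44s-OE HCT116, of which VANGL2, a core polarity protein, stood at 0.91 and 0.937 CPM in parental cells, 0.461 and 0.322 in CD44s-OE cells, then 2.11 and 2.46 in CD44v6-OE. VANGL2 was lower by 2.54 in CD44s-OE than in CD44v6-OE (adjusted p = 0.0288), and 0 of 18 passed in SW480.

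Of the feedback targets of canonical signaling, 3 of 11 tested rose and 1 fell in CD44s-OE HCT116, where 8.45% of all genes rose and 5.71% fell. TNFRSF19 rose by 2.27 (adjusted p = 0.00911), SP5 by 1.34 (adjusted p = 0.011) and NOTUM as above, and all 3 were higher than in CD44v6-OE too. MYC, a target of several pathways, fell by 0.71 (adjusted p = 0.0939). In SW480 CD44s-OE, NKD1 rose by 0.92 (adjusted p = 0.0307), as the 1 of 14, and 0 passed in CD44v6-OE of either line. Between the parental lines 12 of 14 feedback targets were higher in SW480, where 31.7% of all genes were, with a median log2 fold change of 3.21 against 0.04 for all genes. SP5 illustrates this, with 249 and 285 CPM in parental SW480 and 3.32 and 3.71 in parental HCT116.

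Some genes of the epithelial and quasi-mesenchymal states moved with CD44s-OE in the same libraries. In SW480 CD44s-OE against parental cells, ZEB1 rose by 1.26 (adjusted p = 0.0351), and the epithelial splicing factor ESRP1 and the adhesion protein EPCAM fell by 2.47 (adjusted p = 0.000572) and 1.80 (adjusted p = 0.000548). CDH1 fell by 3.43 (adjusted p = 0.0832), and VIM was at 0.04 (adjusted p = 0.961). In HCT116 CD44s-OE, ZEB1 rose by 3.11 (adjusted p = 0.00368), VIM by 3.16 (adjusted p = 0.00209) and CDH1 fell by 1.61 (adjusted p = 0.00541). The 13 epithelial markers summed to 17628 to 17744 CPM in parental SW480, 8732 to 10208 in CD44s-OE and 14245 to 15517 in CD44v6-OE, and to 7177 to 8578, 6152 to 7336 and 7274 to 7966 in HCT116. The 10 fibroblast markers summed to 19 to 26.5 CPM in parental HCT116, 44 to 62.7 in CD44s-OE and 40 to 43.5 in CD44v6-OE, and to 10.8 to 17.8 over the SW480 libraries, with 2 or 3 of 10 at 1 CPM or more and DCN and PDGFRA at or near 0. The leukocyte list summed to 5.72 CPM at most, with PTPRC at or near 0, and the endothelial list to 5.56 with CDH5 at or near 0. Of these 10 leukocyte and 6 endothelial genes, 0 reached 1 CPM in any HCT116 group. In each SW480 group 1 or 2 of each list did. The neuron list summed to 20.9 CPM at most, with 2 or 3 of 6 genes at 1 CPM or more. The part of these cell states and markers in the Wnt results was not tested.

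Reads of near copies and opposite-strand genes were small. The partial copy LRP5L had 99 to 323 counts beside 6929 to 10338 for LRP5, and RYKP1 had 0. WNT5A-AS1 had 0 to 68 counts, FZD10-AS1 0 to 31, FZD4-DT 0 to 29 and ROR1-AS1 0 to 2. WNT3 and WNT9B lie on opposite strands of chromosome 17 with 46 bases between them, and WNT10B and WNT1 on chromosome 12 with 6586; in both pairs the second gene was not expressed at 1 CPM in any group.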

How the data were processed

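RNAseq of poly(A) RNA was made by the authors for 12 libraries. They aligned reads with STAR 2.7.9a to hg19, marked duplicates and counted exons of GENCODE 35, lifted to build 37, with featureCounts 2.0.3, strand-specifically. The deposited counts are whole numbers per gene with no normalization, and no setting that counts pairs is shown, so each read of a pair was taken to count. The deposited log2-like values are a variance-stabilizing transformation made by the authors with DESeq2 1.30.1, used here for gene symbols only.

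Groups and replicates came from the labels. Each line was fitted alone (6 libraries) with edgeR 4.0.16 in R 4.3.3 (TMM, filterByExpr, robust quasi-likelihood, Benjamini-Hochberg over all tested genes), and line differences and parental lines in 1 fit of 12. Genes passed at an adjusted p under 0.1 and were called with an absolute log2 fold change over 1.5 as well, as in the study. The SE is the fold change over the root of the F statistic. By rule, a Wnt gene that passed within a line or in a line difference is given in every library, other expressed ones by group or range, and of each other list up to 6 genes with the lowest adjusted p; APCDD1 was named after its values were seen. Alternatives were other scaling, filters, DESeq2 1.42.0, a replicate block, fewer or more libraries and leaving out each library. The scripts were tested on simulated data. Promoters are from RefSeq GRCh38.p14. The Wnt genes and the lists were chosen with earlier results of these data known. Total counts ranged from 43102156 to 52811889, and intervals and floors cover counting error only.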

Additional observations from a re-analysis of the deposited data

Results flagged for a closer look

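The change in CD44s-OE cells differed between the lines for 2 Wnt ligands by a test of the difference itself. The difference for WNT10A, SW480 minus HCT116, was -2.51 on the log2 scale in CD44s-OE against parental cells (edgeR, adjusted p = 0.0127), and its adjusted p was under 0.1 in 19 of 19 alternatives. Its size ran from -3.02 without the second HCT116 CD44s-OE library to -1.70 without the first; the second had 1.25 CPM and the first 3.13. For WNT10B it was 1.28 (adjusted p = 0.0719), which passed in 11 of 19 alternatives, with an adjusted p of up to 0.275. In CD44s-OE against CD44v6-OE the difference for WNT10A was -2.62 (adjusted p = 0.0323), which passed in 16 of 19 alternatives and was lost without either HCT116 CD44v6-OE library or the second SW480 CD44s-OE library (adjusted p up to 0.244). Its size there ran from -3.14 to -1.82, again without the second or the first HCT116 CD44s-OE library.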

How the results depend on the processing

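Counts of called Wnt genes are given in order of comparison. A required mean count of at least 50 left WNT7A untested in HCT116, so the 0 given below for that filter is not a failed test. For HCT116 CD44s-OE against parental cells the count was 1; it was 2 with no filter, 0 with a mean count of at least 50, 2 with DESeq2, 0 with the 2 compared groups alone, 0 at an adjusted p under 0.05, 8 with no minimum fold, and 0 to 2 with 1 library left out. For HCT116 CD44v6-OE against parental cells the count was 0, and 2 with no minimum fold. For HCT116 CD44s-OE against CD44v6-OE it was 0; it was 1 with no filter, with DESeq2, with all 12 libraries or with no minimum fold, and 0 to 2 with 1 library left out. For SW480 CD44s-OE it was 2 against parental cells, and 1 to 5 with 1 library left out (5 without the second parental library); against CD44v6-OE it was 2, then 4 with the 2 compared groups alone, 1 at an adjusted p under 0.05, and 1 to 4 with 1 library left out. For SW480 CD44v6-OE against parental cells it was 0, and 0 to 2 with 1 library left out. Line differences in CD44s-OE against parental cells numbered 2, then 1 with the replicate block, 1 at an adjusted p under 0.05, and 1 to 4 with 1 library left out; in the other 2 contrasts they numbered 0 and 1, and each was 0 to 1 with 1 library left out. WNT9A between parental lines ranged from -0.18 (reversed, without the first SW480 parental library) to 2.55 (without the second). The count of 17 between parental lines was 16 at an adjusted p under 0.05, 25 with no minimum fold, and 15 to 18 with 1 library left out. The count of 29 expressed genes was 30 at 0.5 CPM and 28 at 0.5 RPKM. Of 1040 alternatives for 61 gene results, 898 kept direction and side of the threshold, 97 lost the call, 44 gained it and 1 reversed. Causes were not tested, except that leaving out a library leaves a lone sample, assumed to vary like the rest. Replicate numbers did not pair the samples: the deviations of same-numbered libraries correlated at 0.015 to 0.0483 in HCT116 and -0.085 to 0.121 in SW480. Genes with few counts, such as WNT7A in HCT116, are limited by depth.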
